A study of Mus musculus with 4 samples.

Results

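The enzymes that write, copy and remove DNA methylation were examined in MDSCs (myeloid-derived suppressor cells, immature neutrophil-like and monocyte-like cells that expand during tumor growth) with and without EGCG, the main catechin of green tea. They are 7 genes taken by symbol from the 53465 genes of the count table, namely Dnmt1, Dnmt3a, Dnmt3b, Uhrf1, Tet1, Tet2 and Tet3. All 7 were found and all 7 were among the 14682 genes with enough counts to be tested. Male BALB/c mice aged 6 weeks had been injected with 4T1 cells, a transplantable mammary carcinoma line, and MDSCs were taken from their spleens with beads against Gr-1, an epitope of Ly-6G and Ly-6C. The labels give day 21 for the removal of the spleens, while the methods of the study give 2 weeks. The sorted cells were then cultured for 6 h in medium alone (control replicates 1 and 2) or in medium with 5 μg/mL EGCG (EGCG replicates 1 and 2). Neither source says if libraries sharing a treatment had different mice or wells as their origin, so the p values measure the spread between these libraries, which may be technical.

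DNA methylation is the addition of a methyl group to cytosine, in mammals mostly at the dinucleotide CpG. Dnmt1 copies the mark onto the new strand after DNA replication, guided by Uhrf1, which binds CpG sites that carry the mark on the parental strand only. Dnmt3a and Dnmt3b set the mark at new sites. Tet1, Tet2 and Tet3 are dioxygenases that oxidize the methyl group and so open the way for its removal. In the myeloid lineage, DNMT3A and TET2 are known as genes that are often mutated in clonal expansions of blood stem cells, and EGCG has been described in cancer cells as an inhibitor of DNA methyltransferase activity. The counts bear on the mRNA of these enzymes, not on their protein, their activity or the methylation of DNA.

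The promoters of the 7 genes were read from RefSeq (GRCm38.p6, 250 bases before to 50 bases after a start), which holds 12 promoters for them. Dnmt1 and Dnmt3a have 3 each, Uhrf1 has 2, and Dnmt3b, Tet1, Tet2 and Tet3 have 1 each. Letters of the type bound by E2F, the transcription factors that turn on S phase genes, were searched on both strands as TTTCGCGC, TTTGGCGC or TTTCCCGC. They were present in 2 of the 12 promoters, that of Dnmt1 and that of Uhrf1, and in 1.84% of the 32851 promoters in the table. All 3 strings hold CpG, and the share over promoters of like CpG content was not computed, so the 1.84% is no matched reference. The first pair of sequences below shows these promoters, written 5′ to 3′ on the strand of the gene with the matching letters in capitals. Dnmt1 (chr9:20952574-20952873, minus strand) has TTTCGCGC on the opposite strand and TTTGGCGC on its own, while Uhrf1 (chr17:56304063-56304362, plus strand) has TTTCGCGC on its own strand. Such a match describes the letters of this window and does not stand for a bound site. The promoter of Tet2 (chr3:133544341-133544640, minus strand) is shown for its CpG content, with CpG in capitals. It holds 57 CpG, against a median of 7 in all promoters of the table, and lies at percentile 99.9. The counts were 47 for the most CpG-rich promoter of Dnmt3a, 33 for the Dnmt1 and Uhrf1 promoters shown, 30 for Dnmt3b, 22 for Tet3 and 17 for Tet1.
Dnmt1: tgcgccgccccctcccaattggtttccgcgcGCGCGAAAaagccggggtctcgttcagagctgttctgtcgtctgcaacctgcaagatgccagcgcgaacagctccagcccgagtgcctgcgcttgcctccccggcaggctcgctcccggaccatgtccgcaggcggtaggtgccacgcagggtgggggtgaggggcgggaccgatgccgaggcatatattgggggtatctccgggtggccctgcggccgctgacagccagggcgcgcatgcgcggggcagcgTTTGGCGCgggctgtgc
Uhrf1: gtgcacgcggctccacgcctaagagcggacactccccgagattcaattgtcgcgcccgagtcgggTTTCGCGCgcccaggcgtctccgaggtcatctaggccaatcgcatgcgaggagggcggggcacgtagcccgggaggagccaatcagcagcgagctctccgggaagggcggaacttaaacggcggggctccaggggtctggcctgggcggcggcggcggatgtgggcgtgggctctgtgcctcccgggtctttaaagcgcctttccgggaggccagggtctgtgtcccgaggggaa
Tet2: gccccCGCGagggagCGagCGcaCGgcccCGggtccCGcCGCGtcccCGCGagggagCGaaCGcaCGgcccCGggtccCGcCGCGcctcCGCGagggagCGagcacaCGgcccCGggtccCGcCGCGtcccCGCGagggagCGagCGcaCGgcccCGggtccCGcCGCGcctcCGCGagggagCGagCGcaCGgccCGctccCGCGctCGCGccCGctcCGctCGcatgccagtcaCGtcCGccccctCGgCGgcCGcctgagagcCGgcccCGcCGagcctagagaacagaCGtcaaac

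The libraries held 17767318 to 18390385 counts on genes. Neutrophil genes dominated: the 12 neutrophil markers, among them Ly6g, S100a8 and S100a9, together reached 62771 to 74372 CPM (counts relative to library size, scaled by TMM) in the control libraries and 74137 to 83354 CPM in the EGCG libraries. Genes of other cells were present at lower levels, for example 1781 to 2024 CPM over the 7 B cell markers and 1178 to 1336 CPM over the 8 markers of monocytes and macrophages. In such a mixture, fewer cells of a type and less RNA per cell cannot be told apart. The control libraries were not equally far from the EGCG libraries: the chi-square between libraries, averaged over genes, was 14.4 and 11.2 from control replicate 1 to EGCG replicates 1 and 2, against 6.90 and 6.14 from control replicate 2. Within the groups it was 6.25 between the control libraries and 6.08 between the EGCG libraries. Differences with EGCG were tested in edgeR (quasi-likelihood, Benjamini-Hochberg over 14682 genes, threshold 0.05), under which 0.150% of the tested genes were called (20 lower and 2 higher with EGCG).

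Per length of transcribed sequence, Dnmt1 was the most abundant of the enzymes and Tet1 the least. Levels are given here as RPKM (CPM per kilobase of exonic length), in which Dnmt1 was at 15.3 ± 0.425 (SD, n = 2) in the control group and 14.2 ± 0.407 (SD, n = 2) in the EGCG treatment group. Tet3 followed with 6.84 ± 0.444 and 5.70 ± 0.192, and Uhrf1 with 5.00 ± 0.00283 and 4.54 ± 0.288 (SD, n = 2 each). These genes kept this order in 4 of 4 libraries. Tet2 was at 3.91 ± 0.328 RPKM in control and 3.07 ± 0.0861 with EGCG, and Dnmt3a at 3.60 ± 0.510 and 3.07 ± 0.167 (SD, n = 2 each). On exonic length, Tet2 and Dnmt3a did not differ beyond their spread, since Tet2 exceeded Dnmt3a in 3 of 4 libraries and their ranges overlapped. Dnmt3b was nearly an order of magnitude lower, at 0.472 ± 0.000470 in control and 0.375 ± 0.0345 with EGCG, and Tet1 was lower again, at 0.0396 ± 0.0259 and 0.0450 ± 0.00810 RPKM (SD, n = 2 each). Where the longest annotated transcript was used as the length, Uhrf1 was above Tet2 in only 1 of 4 libraries, Tet2 was above Dnmt3a in 4 of 4, and the order of the other neighbors was the same in 4 of 4 libraries.

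**Figure D1:**
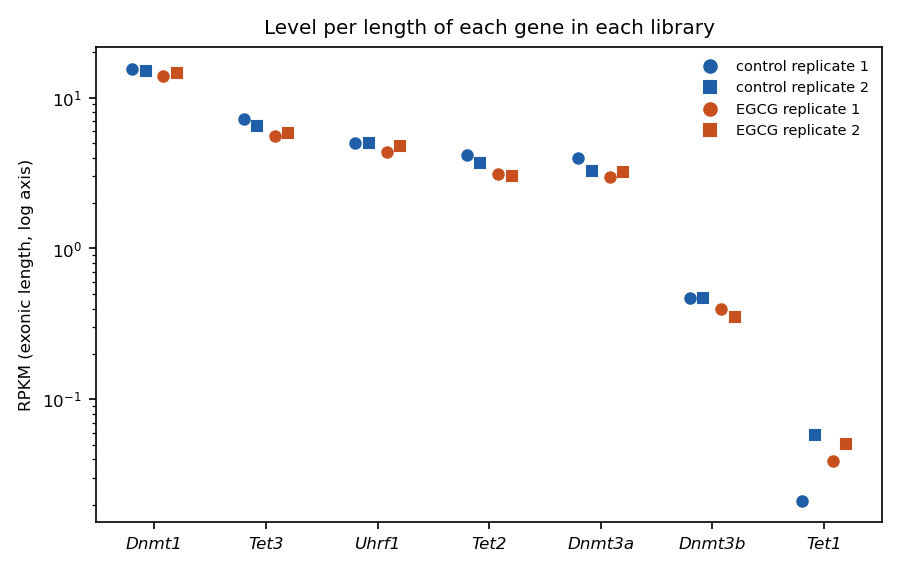
Level of each of the 7 genes in RPKM (log axis) in the control libraries (blue) and the EGCG libraries (orange), ordered by mean. Dnmt1 lies above all others in each library, Tet2 and Dnmt3a overlap, and Tet1 is lowest, with 6 to 16 counts per library.

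With EGCG, 6 of the 7 genes were lower in both EGCG libraries than in either control library, and the differences were modest, from 6.69% (Dnmt1) to 21.4% (Tet2) of the control mean. None passed the threshold: 0 of 7 were called over all tested genes, while 3 of 7 (Tet2, Tet3 and Dnmt3a) had an unadjusted p under 0.05 and were lower. Over all tested genes, 7.02% were lower at an unadjusted p under 0.05, and 21.2% had both EGCG libraries below both control libraries. The median log2 fold change was -0.23 over the 7 genes and 0.0031 over all tested genes. With the correction for gene length described below, the median of the 7 was -0.11, the value of Tet3. Without control replicate 1, the control library farther from the EGCG libraries, the log2 fold changes were -0.07 for Dnmt1, -0.07 for Dnmt3a, -0.32 for Dnmt3b, -0.14 for Uhrf1, -0.36 for Tet1, -0.26 for Tet2 and -0.19 for Tet3, with 0 called. With 2 libraries against 2, an exact permutation test cannot give a p below 0.33.

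Dnmt1 (ENSMUSG00000004099, chr9:20907209-20959888, minus strand of GRCm38) had 2096 and 1972 counts in control replicates 1 and 2, and 1866 and 1914 counts in EGCG replicates 1 and 2. Both EGCG libraries were below both control libraries, by a gap that was narrow beside their spread. In CPM the level was 112.6 ± 3.14 in control and 105.04 ± 3.002 with EGCG (SD, n = 2 each), a log2 fold change of -0.10 (standard error 0.07, 95% interval from -0.26 to 0.06). In folds, the interval runs from 0.835 to 1.04 times the control level. Uhrf1 (ENSMUSG00000001228, chr17:56303321-56323486, plus strand), which brings Dnmt1 to replicated DNA, had 389 and 381 counts in control and 335 and 361 counts with EGCG. Its control libraries were nearly identical at 21.3 CPM each, and the EGCG libraries were at 18.5 and 20.2 CPM. The log2 fold change of Uhrf1 was -0.14 (standard error 0.11, 95% interval from -0.37 to 0.09). Both genes thus had intervals that include no change. Of the 31-base words of Uhrf1 transcripts, 24.2% also occur in transcripts of other genes, chiefly the pseudogene Gm5648, where the counting could have split reads. Gm5648 itself had 18 and 14 counts in control and 20 and 28 counts with EGCG, the opposite direction to Uhrf1.

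Dnmt3a (ENSMUSG00000020661, chr12:3806007-3914443, plus strand) had 1203 and 963 counts in control and 892 and 949 counts with EGCG. The gap between the groups rested on control replicate 1: in CPM the libraries were at 65.9 and 53.9 in control and at 49.2 and 53.1 with EGCG, so that control replicate 2 and EGCG replicate 2 were nearly equal. The log2 fold change was -0.23 (standard error 0.10, 95% interval from -0.44 to -0.01, unadjusted p = 0.0401, Benjamini-Hochberg adjusted p = 0.389 in edgeR). Without control replicate 1 it was -0.07, and without control replicate 2 it was -0.36. Its exons share 133 bases with the antisense gene Dnmt3aos, which had 7 to 14 counts per library, and those of Tet2 share 43 bases with the antisense gene Gm42567, which had 0 to 1 counts. Reads from such a pair cannot be told apart where the counting ignores strand. Dnmt3b (ENSMUSG00000027478, chr2:153649450-153687730, plus strand), the other de novo enzyme, had 44 and 43 counts in control and 37 and 32 counts with EGCG. At this depth its log2 fold change of -0.33 had a standard error of 0.27 and a 95% interval from -0.92 to 0.26, so that a difference was not detectable. Of the words of Dnmt3b, 13.5% recur in other genes, chiefly Dnmt3c, which had 0 counts in every library. Dnmt3l, the catalytically inactive partner of the de novo enzymes, had 116 to 139 counts per library and a log2 fold change of 0.07 (standard error 0.17).

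Tet2 (ENSMUSG00000040943, chr3:133463679-133545139, minus strand) was the gene of the group with the smallest p. It had 1277 and 1110 counts in control replicates 1 and 2, and 959 and 908 counts in EGCG replicates 1 and 2. The EGCG libraries, at 52.9 and 50.8 CPM, lay below the control libraries at 69.9 and 62.1 CPM. The log2 fold change was -0.35 (standard error 0.09, 95% interval from -0.54 to -0.16), with an unadjusted p of 0.00137, rank 145 among the tested genes, and a Benjamini-Hochberg adjusted p of 0.133 in edgeR. Over the alternatives, the edgeR or DESeq2 adjusted p of Tet2 ran from 0.0445 (library size only in place of TMM) to 0.652 (no filter on low counts), and it was 0.590 without control replicate 1 (log2 fold change -0.26) and 0.0155 without control replicate 2 (-0.43). Tet3 (ENSMUSG00000034832, chr6:83362373-83459084, minus strand) had 2182 and 1948 counts in control and 1685 and 1741 counts with EGCG. Here too the groups were apart, with 119.5 and 109.01 CPM in control against 92.9 and 97.5 CPM with EGCG. Its log2 fold change was -0.26 (standard error 0.08, 95% interval from -0.43 to -0.09), with an unadjusted p of 0.00477 and an adjusted p of 0.218 in edgeR, adjusted the same way. Tet1 (ENSMUSG00000047146, chr10:62804570-62908996, minus strand) had only 6 and 16 counts in control and 11 and 14 counts with EGCG. The groups overlapped, and the log2 fold change of 0.19 (standard error 0.53, 95% interval from -0.94 to 1.32) turned to -0.36 without control replicate 1 and to -0.0060 without EGCG replicate 2.

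**Figure D2:**
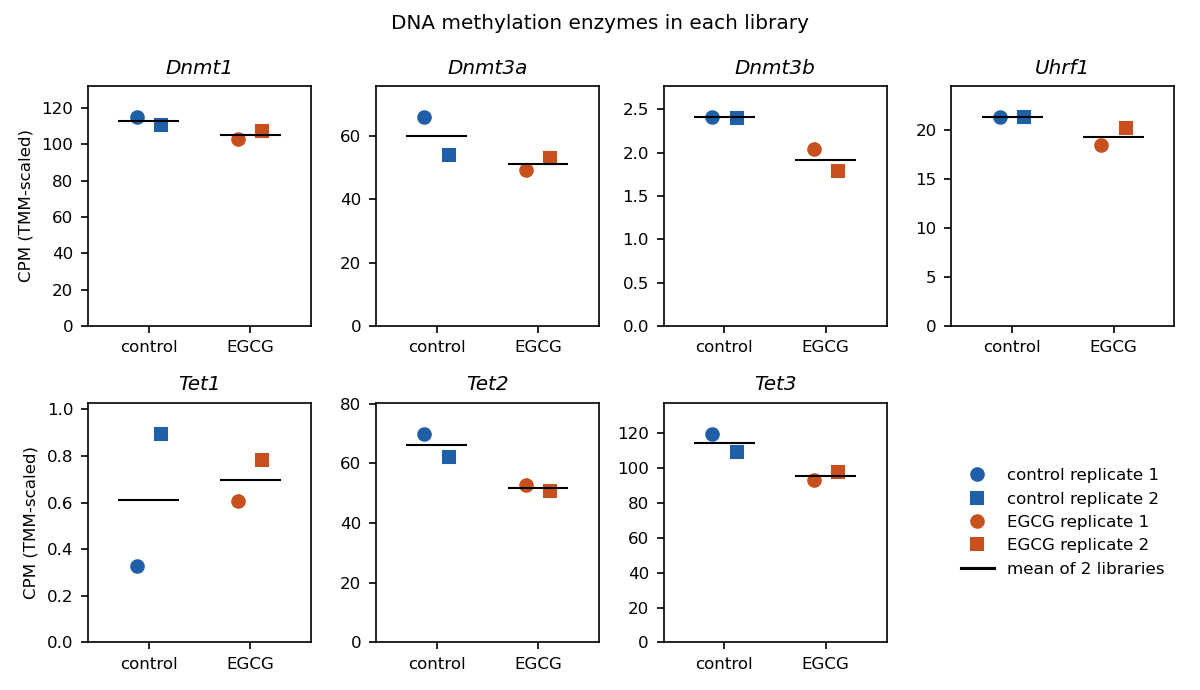
CPM of each gene in each library (blue, control; orange, EGCG; circles, replicate 1; squares, replicate 2; lines, means of 2 libraries), with every axis starting at 0. For 6 genes both EGCG points lie below both control points, while those of Tet1, which had 6 to 16 counts, overlap.

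The spread between the control libraries was unequal across these genes. In relative terms, control replicate 1 stood furthest above control replicate 2 for Dnmt3a (65.9 against 53.9 CPM), Tet2 (69.9 against 62.1 CPM) and Tet3 (119.5 against 109.01 CPM), the same 3 genes that had an unadjusted p under 0.05. For Dnmt1 the control libraries were at 114.8 and 110.4 CPM, and those of Uhrf1 and Dnmt3b were nearly equal.

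Gene length moved with these differences. Over all tested genes, the median log2 fold change was 0.09 in the shortest of 4 equal classes of exonic length (up to 2067 bases) and -0.08 in the longest class (from 6211 bases), where 38.0% of genes had both EGCG libraries below both control libraries. Dnmt1 and the genes Dnmt3a, Tet1, Tet2 and Tet3 are in the longest class, all but Dnmt1 at percentiles of 98.1 or above with 15.5 to 16.9 kb. With a correction for length in each library, the log2 fold change was -0.19 for Tet2 (95% interval from -0.37 to -0.02), -0.11 for Tet3 (-0.27 to 0.05), -0.07 for Dnmt3a (-0.27 to 0.12) and -0.04 for Dnmt1 (-0.20 to 0.12). For Tet1 it was 0.33 (-0.79 to 1.44), against 0.19 without the correction. The values of the shorter genes hardly moved, at -0.14 for Uhrf1 and -0.31 for Dnmt3b. The part of length in the differences of single genes was not tested.

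**Figure D3:**
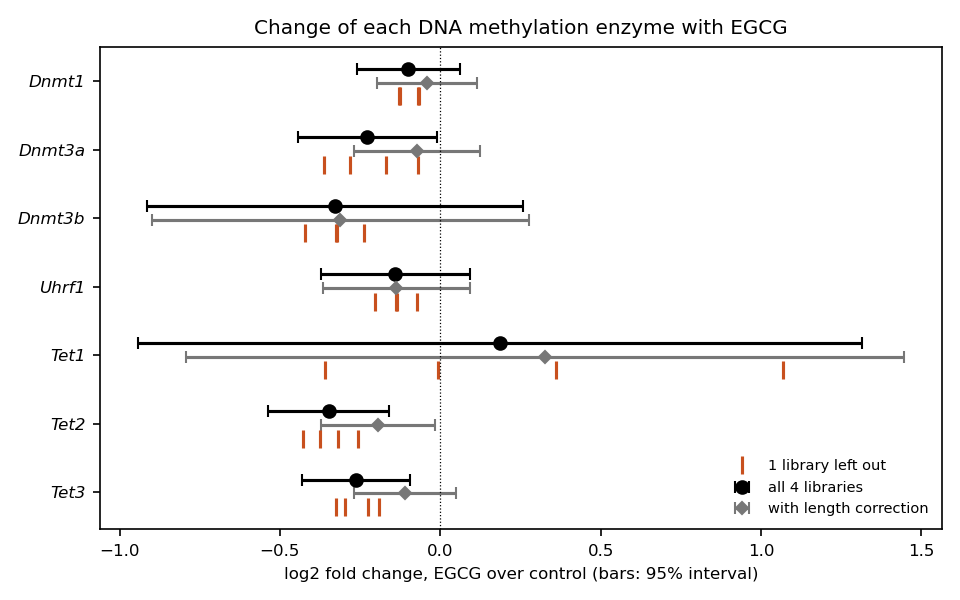
Log2 fold change of each gene, EGCG over control, with its 95% interval from all 4 libraries (black) and with the length correction (gray), and the values with 1 library left out (orange ticks). The intervals of Tet2, Tet3 and Dnmt3a lie below 0 without the correction, and that of Tet2 alone does so with it.

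**Figure D4:**
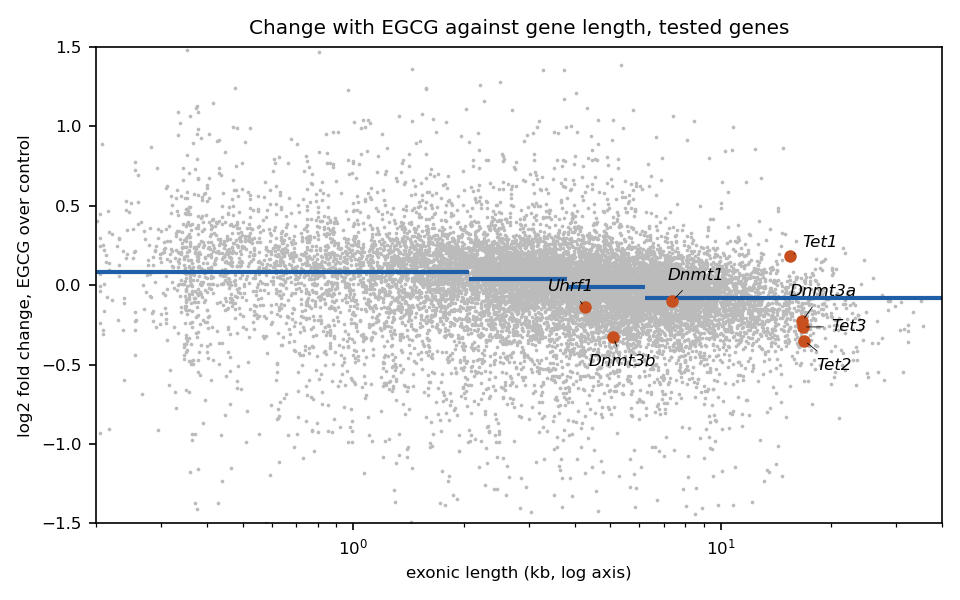
Log2 fold change, EGCG over control, of all tested genes with a length (gray; 142 of 14666 lie outside the axes) against exonic length in kb (log axis), with the 7 genes in orange and the median of each of 4 length classes in blue. The medians step down from 0.09 to -0.08, and Dnmt1, Dnmt3a, Tet2 and Tet3 lie below the median of the longest class while Tet1 lies above it. That class runs from 6211 to 123179 bases, so its median need not be that of genes as long as Dnmt3a, Tet1, Tet2 and Tet3.

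The ratio of the writers to the erasers was higher in both EGCG libraries. It largely restates values of single genes given above. Dnmt1 made up most of the writer sum, and Tet3 and Tet2 made up nearly all of the eraser sum. Ratios of other genes are not given here, so the ratio has no reference value. Summed RPKM of Dnmt1, Dnmt3a and Dnmt3b was 20.0 and 18.7 in control replicates 1 and 2 and 17.3 and 18.1 in EGCG replicates 1 and 2, while that of Tet1, Tet2 and Tet3 was 11.3 and 10.3 in control and 8.74 and 8.90 with EGCG. Their ratio was 1.77 and 1.82 in control (mean 1.79 ± 0.0372, SD, n = 2) and 1.98 and 2.03 with EGCG (mean 2.005 ± 0.0352, SD, n = 2). The difference of 0.213 was larger than the spread between the replicates, and the ratios of the groups did not overlap, for which an exact permutation test with 2 against 2 gives its smallest p of 0.33. With length-corrected levels, an alternative chosen after seeing the data, the ratio was 1.84 ± 0.00843 in control and 1.95 ± 0.0301 with EGCG (SD, n = 2 each), a difference of 0.110.

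Other genes of the pathway were taken from lists written by function. Among 12 partners in recruitment and maintenance, of which 10 were tested, 0 were called, and 7 had a positive and 3 a negative log2 fold change (median 0.04). Over all tested genes, 7428 of 14682 were positive. Nsd1, whose histone mark guides Dnmt3a, was at 164.03 ± 14.02 CPM in control and 135.4 ± 9.60 CPM with EGCG (SD, n = 2 each), a log2 fold change of -0.28 (standard error 0.08) with a Benjamini-Hochberg adjusted p of 0.222 in edgeR. It was -0.18 without control replicate 1 (edgeR adjusted p 0.805), -0.36 without control replicate 2 (edgeR adjusted p 0.0322) and -0.12 with the length correction (edgeR adjusted p 0.6595). Cdca7, an activator of the remodeler Hells, had a log2 fold change of 0.17 (standard error 0.09), and 0.10 without control replicate 1. The replication clamp Pcna, to which Dnmt1 binds, had 0.10 (0.08), with a 95% interval from -0.07 to 0.27. Of the 9 genes listed as methyl-CpG readers, which comprise MBD family members and zinc finger proteins, 0 were called, and the median was -0.07. Mbd2 was at 309.03 ± 21.5 CPM in control and 356.8 ± 6.54 CPM with EGCG (SD, n = 2 each), a log2 fold change of 0.21 (standard error 0.08).
Downstream of the TET enzymes, oxidized cytosine is cut out by Tdg and replaced by base excision repair. Of 17 such genes and TET partners, 15 were tested, 0 were called and the median was -0.0038. Tdg itself had 95 to 100 counts in each library. Lig3, the ligase of this repair, was at 29.5 ± 2.09 CPM in control and 23.4 ± 1.13 CPM with EGCG (SD, n = 2 each), a log2 fold change of -0.34 (standard error 0.10). Gadd45a, which has been tied to DNA demethylation and to stress, was at 71.6 ± 1.84 CPM in control and 85.2 ± 4.76 CPM with EGCG (SD, n = 2 each), a log2 fold change of 0.25 (standard error 0.08). Ogt, a sugar transferase that binds TET proteins and is named here after its values were seen, had 9096 and 8580 counts in control and 7997 and 6598 with EGCG.
Of the 16 genes that supply the methyl donor or the cofactors of TET enzymes, 16 were tested and 0 were called, with a median of -0.05. Mat2b, the regulatory subunit of the enzyme that makes the methyl donor S-adenosylmethionine, had a log2 fold change of 0.18 (standard error 0.08), and 0.10 without control replicate 1.

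**Figure D5:**
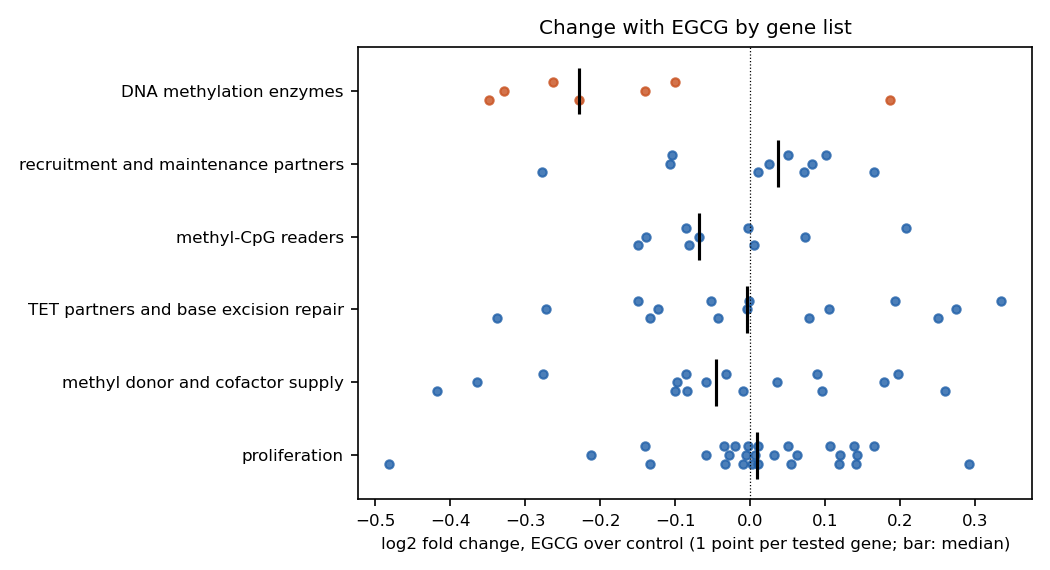
Log2 fold change, EGCG over control, of each tested gene (points) in the group of 7 enzymes (orange) and in 5 other lists (blue), with the median of each as a bar. The median of the enzymes is -0.23, and those of the other lists lie between -0.07 and 0.04. All values are without the length correction, with which the median of the enzymes is -0.11, the value of Tet3.

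Dnmt1 and Uhrf1 are known to follow DNA replication, so genes of proliferation were placed beside them. Of 28 such genes, 1 was called, and the median log2 fold change was 0.0088, with 16 positive and 12 negative values. The called gene, Mki67, which encodes the proliferation marker Ki-67, fell from 286.2 ± 9.65 CPM in control to 204.98 ± 5.17 CPM with EGCG (SD, n = 2 each), a log2 fold change of -0.48 (standard error 0.07) with a Benjamini-Hochberg adjusted p of 0.0245 in edgeR. Mki67 is a long gene, and with the length correction its log2 fold change was -0.39 and its edgeR adjusted p 0.0633. Without a filter on low counts the log2 fold change was again -0.48 and the edgeR adjusted p 0.5245, over 27490 genes in place of 14682. The DNA helicase genes Mcm2 to Mcm7, which act at replication forks as Dnmt1 does, had log2 fold changes from -0.02 (Mcm3) to 0.14 (Mcm5). Top2a of the same list had -0.21 (standard error 0.08), with an unadjusted p of 0.0192 and a Benjamini-Hochberg adjusted p of 0.318 in edgeR.

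Genes whose silencing in body cells is tied to promoter methylation had mostly too few counts for a test. Of 16 germline genes, 2 were tested, 0 were called, 5 had 0 counts in all 4 libraries (Dazl, Mael, Asz1, Tex19.1 and Rpl10l), and 11, these 5 included, had at most 3 counts in every library. The tested genes were Piwil2, at 17.7 ± 1.05 CPM in control and 17.8 ± 0.204 CPM with EGCG, and Sycp1, at 2.13 ± 0.0849 and 1.89 ± 0.885 CPM (SD, n = 2 each). Among the genes with too few counts, both EGCG libraries were above both control libraries for Ddx4 (3 and 2 counts in control, 5 and 13 with EGCG), Taf7l (0 and 0, then 3 and 3) and Sycp3 (1 and 0, then 3 and 2). Gpat2 had 6 and 4 counts in control and 4 and 3 with EGCG, so that control replicate 2 and EGCG replicate 1 had equal counts. Only in CPM were both EGCG libraries below both control libraries for Gpat2, with 0.224 in control replicate 2 and 0.221 in EGCG replicate 1. Stk31 had 0 and 0 counts in control and 0 and 5 with EGCG. Of all 14682 tested genes, 3156 had both EGCG libraries above both control libraries. That share covers genes with enough counts for a test, so it gives no reference value for these low genes. Of 8 genes described as re-expressed in cancer lines with EGCG, 5 were tested and 0 were called. Mgmt, a DNA repair gene, had 8 and 9 counts in control and 16 and 11 with EGCG (log2 fold change 0.66, standard error 0.49), Timp3 had 30 and 26 counts in control and 8 and 16 with EGCG (-1.21, 0.41), and Rarb had 0 counts in every library. With 1 library left out, the log2 fold change ran from 0.39 (without EGCG replicate 1) to 0.90 (without EGCG replicate 2) for Mgmt and from -1.795 (without EGCG replicate 2) to -0.7835 (without EGCG replicate 1) for Timp3.

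Among the marker genes of other cells, 0 were called. Of the 5 endothelial markers 4 were tested, and all 4 (Pecam1, Cdh5, Kdr and Tek) were lower in both EGCG libraries, with a median log2 fold change of -0.81. The list summed to 113.9 to 125.97 CPM in control and 94.2 to 98.6 CPM with EGCG. Most of this sum was Pecam1, with means of 105.5 CPM in control and 88.2 CPM with EGCG. The defining marker Cdh5 was at 6.64 CPM in control and 3.64 CPM with EGCG, and Emcn had at most 5 counts in any library. All 4 had an unadjusted p under 0.05 in edgeR, with Benjamini-Hochberg adjusted p from 0.103 (Cdh5) to 0.376 (Tek). Over all tested genes, 7.02% were lower at an unadjusted p under 0.05, and 21.2% had both EGCG libraries below both control libraries. Of the 8 markers of monocytes and macrophages, 7 had a negative log2 fold change (median -0.20), and the list summed to 1305 to 1336 CPM in control and 1178 to 1196 CPM with EGCG. The 6 markers of early granulocytes, among them Elane and Mpo, summed to 817 to 824 CPM in control and 795 to 844 CPM with EGCG, and their groups overlapped. Of the 5 tested stem and progenitor markers 4 were negative (62.5 to 71.0 CPM in sum over the libraries), as were 5 of 5 megakaryocyte and platelet markers (34.2 to 43.6 CPM). Positive log2 fold changes were in the majority among the neutrophil markers (9 of 12, median 0.13), the B cell markers (5 of 7, median 0.10), the tested T and NK cell markers (4 of 6, median 0.13), the tested erythroid markers (5 of 8, median 0.08) and the tested epithelial markers (2 of 3, median 0.57). Over all tested genes, 7428 of 14682 were positive and 7254 negative. The counts of the T and NK cell, erythroid and epithelial lists lie close to that share and give no direction. Of the epithelial markers, Cdh1 had 402 and 366 counts in control and 294 and 345 with EGCG, Epcam had 65 and 59 in control and 92 and 99 with EGCG, and Krt19 had 0 in every library. The part of all these cells in the values of Tet2, Tet3 and the other enzymes was not tested.

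The genes most like each enzyme were named by the smallest mean absolute difference in centered log2 CPM over the 4 libraries, among genes within 1 log2 unit of its mean level. They were Ap3d1 and Hspa4 for Dnmt1 (difference 0.00563 and 0.00564), Tifab and Larp1 for Dnmt3a (0.0118 and 0.0139), Ppip5k2 and Chid1 for Uhrf1 (0.00811 and 0.0103), Rai1 and Golga4 for Tet2 (0.0117 and 0.0191), and Micall1 and Mybbp1a for Tet3 (0.0101 and 0.0126). For the low genes the nearest were Gja1 and Mcts2 (0.0190 and 0.0229 from Dnmt3b) and Tmem17 and Ighv1-18 (0.0326 and 0.0542 from Tet1). With 2209 to 3730 candidates per enzyme and only 4 libraries, such nearness describes these libraries alone.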

How the data were processed

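RNA-seq counts of 2 control and 2 EGCG libraries of sorted splenic MDSCs were used. Per the submitters' processing notes and the methods, reads were aligned by STAR 2.6.0c (GRCm38) and assigned to Ensembl release 91 genes by featureCounts 1.6.2, and the authors deposited raw counts per gene, named as non-stranded (0 columns of other samples, 0 rows without a gene).

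Genes were filtered with edgeR's filterByExpr (minimum count of 10), scaled by TMM and tested in edgeR 4.0.16 (legacy quasi-likelihood fit, R 4.3.3) with Benjamini-Hochberg adjustment over 14682 genes. The standard error is the size of the log2 fold change divided by the square root of F. Lengths and positions came from GENCODE M21 (GRCm38), which gave no length for 16 tested genes. The length correction is a loess curve (span 0.4) of log2 CPM (prior count of 2) per library, used as an offset. The fit and the correction were also run on simulated data, whose outcomes are not given here and back no result. Figures used Python 3.11.15, pandas 2.3.3 and matplotlib 3.10.9.

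The 7 enzymes and all lists were chosen with earlier results of these data known. Named genes are the 7 enzymes and, per list, those past the threshold, otherwise the tested gene with the smallest p in each direction. Other genes named (Dnmt3l, Pcna, Tdg, Ogt, the Mcm genes, Top2a, germline genes at low counts and cell markers) were chosen after their values were seen. Some genes that the rule names are not reported here. Alternatives were other filters, scalings, DESeq2 1.42.0, a robust fit, the length correction, a replicate block and each library left out. Fold changes of Dnmt3b and Uhrf1 rest on counts that could be shared with similar genes. Intervals assume that edgeR's spread holds, and floors (3 counts) cover counting error only.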

Additional observations from a re-analysis of the deposited data

How the results depend on the processing

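The direction of Dnmt1, Dnmt3a, Dnmt3b, Uhrf1, Tet2 and Tet3 was negative under each of 9 alternatives and with each library left out. Their log2 fold changes with a library left out ran from -0.13 to -0.07 (Dnmt1), -0.36 to -0.07 (Dnmt3a), -0.42 to -0.24 (Dnmt3b), -0.20 to -0.07 (Uhrf1), -0.43 to -0.26 (Tet2) and -0.33 to -0.19 (Tet3). Tet1 ran from -0.36 to 1.07, turning negative without control replicate 1 (-0.36) and without EGCG replicate 2 (-0.0060), and the 1 CPM filter removed it. The number of the 7 enzymes called was 1 with library size only (Tet2, log2 fold change -0.38, adjusted p of 0.0445 by edgeR's quasi-likelihood test), 0 to 1 with a library left out (Tet2 without control replicate 2) and 0 otherwise, DESeq2 included. Over all genes the number called, 22, was 0 without a filter on low counts (with an unadjusted p under 0.05, 1018 genes lower and 777 higher), 151 with library size only, 11 with upper-quartile scaling, 66 with DESeq2, 63 with the robust fit, 7 with the length correction and 77 to 354 with a library left out; the cause of these shifts was not tested. The proliferation list, with 1 call, had 0 without a filter and 0 with the length correction. The partner list and the base excision repair list had 0 to 1 calls with a library left out. The ratio of writers to erasers differed by 0.213 between the groups, by 0.173 with the longest transcript as length, by 0.110 with length-corrected levels and by 0.187 to 0.240 with a library left out. Piwil2 turned from 0.0050 to -0.030 with library size only and to -0.0043 without EGCG replicate 1 (range -0.050 to 0.069 with a library left out), and Sycp1 from -0.17 to 0.24 without EGCG replicate 1 (range -0.744 to 0.243). The replicate numbers are not said to pair the libraries, and the correlation of their deviations across genes was 0.0336. With a replicate block, 30 genes and 0 of the 7 enzymes were called, with Tet2 at -0.35 and Dnmt3a at -0.22, and no other call of the text changed. Dnmt3b and Tet1, with 6 to 44 counts per library, are limited by depth.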
